A study of Mus musculus with 12 samples.

Results

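The complement and coagulation genes described here are 41 genes of plasma defence and haemostasis, listed by name with earlier results of these data known. Every m6A peak whose annotation named one of them was taken, which gave 225 of the 37118 peaks in the table. All 41 genes had a peak, with 0 absent, and they had between 1 peak (C4b, C6 and C8g) and 15 peaks (F5) each. By role, 15 genes (74 peaks) belonged to complement, 14 (88 peaks) to clotting, 3 (19 peaks) to fibrinolysis and 9 (44 peaks) to the inhibitors of these systems. The samples were livers of wild-type male C57BL/6 mice, 6 to 8 weeks old when housed for the study, that had received CdCl2 in deionized water by gavage every day until day 90. The cadmium group received 20 mg/kg/day and the control group 0 mg/kg/day, and 3 samples of each were compared. The labels give 6 animals per group and do not say how the 3 samples relate to them, so the p-values measure the spread between these samples. Fragments of liver RNA that carry m6A (N6-methyladenosine) were pulled down with an antibody. This methyl group is placed on adenosines of messenger RNA, often near the end of the coding sequence.

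Most plasma proteins of these systems are secreted by hepatocytes. Complement is a cascade that is started by C1 on antibodies or by mannose-binding lectins on microbial sugars, converges on C3, and ends in a pore built from C5 to C9. Clotting is a cascade of proteases that ends in thrombin, which turns fibrinogen into fibrin, and plasmin then dissolves the fibrin. Several of the genes, fibrinogen and the mannose-binding lectins among them, are known to respond to inflammation in liver.

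Each sample had 40174736 to 52338612 counts in peaks, of which the members' peaks took 2.99% to 3.88%. Levels are counts scaled to a common library size by TMM (CPM), log2 changes are cadmium relative to control, and a peak was called when its adjusted p was below 0.05. All adjusted p-values for peaks and genes are from edgeR's quasi-likelihood test with Benjamini-Hochberg adjustment over the whole table. As the counts are of pulled-down RNA and input RNA was not used, a difference can reflect the amount of RNA or its methylated share. In whole liver, fewer cells of a type and less RNA per cell also cannot be told apart. Hepatocyte markers were abundant and 0 of their 49 peaks were called, with summed levels of 28010 to 29840 CPM in control and 23950 to 28430 CPM in cadmium samples. Their median log2 change over peaks was -0.14. Every Alb, Cps1 and Apob peak was below 0, and Hnf4a and Apoa1 had peaks of both signs. Every Ttr peak was above 0, by at most log2 0.04.

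Cadmium livers had more counts in all peaks of F11, the gene of clotting factor XI, and in 3 peaks of Fgg, the gene of the fibrinogen gamma chain. These made up the 9 member peaks called higher, and 0 member peaks were called lower. Over all tested peaks 6.27% were called, 3.55% higher and 2.72% lower, against 9 of 225 and 0 of 225 for the members, all 225 of which passed the filter on low counts. All 9 calls were in clotting genes, and 0 of 74 complement peaks, 0 of 19 fibrinolysis peaks and 0 of 44 inhibitor peaks were called. Without F11, 3 of 219 member peaks were called. At an unadjusted p below 0.05 there were 31 member peaks, against 21.8% of all peaks. DESeq2 called 12 member peaks, 2 of them in complement. A fit with the replicate (the labelled batch) as a block also called 12, with 2 in complement.

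**Figure D1:**
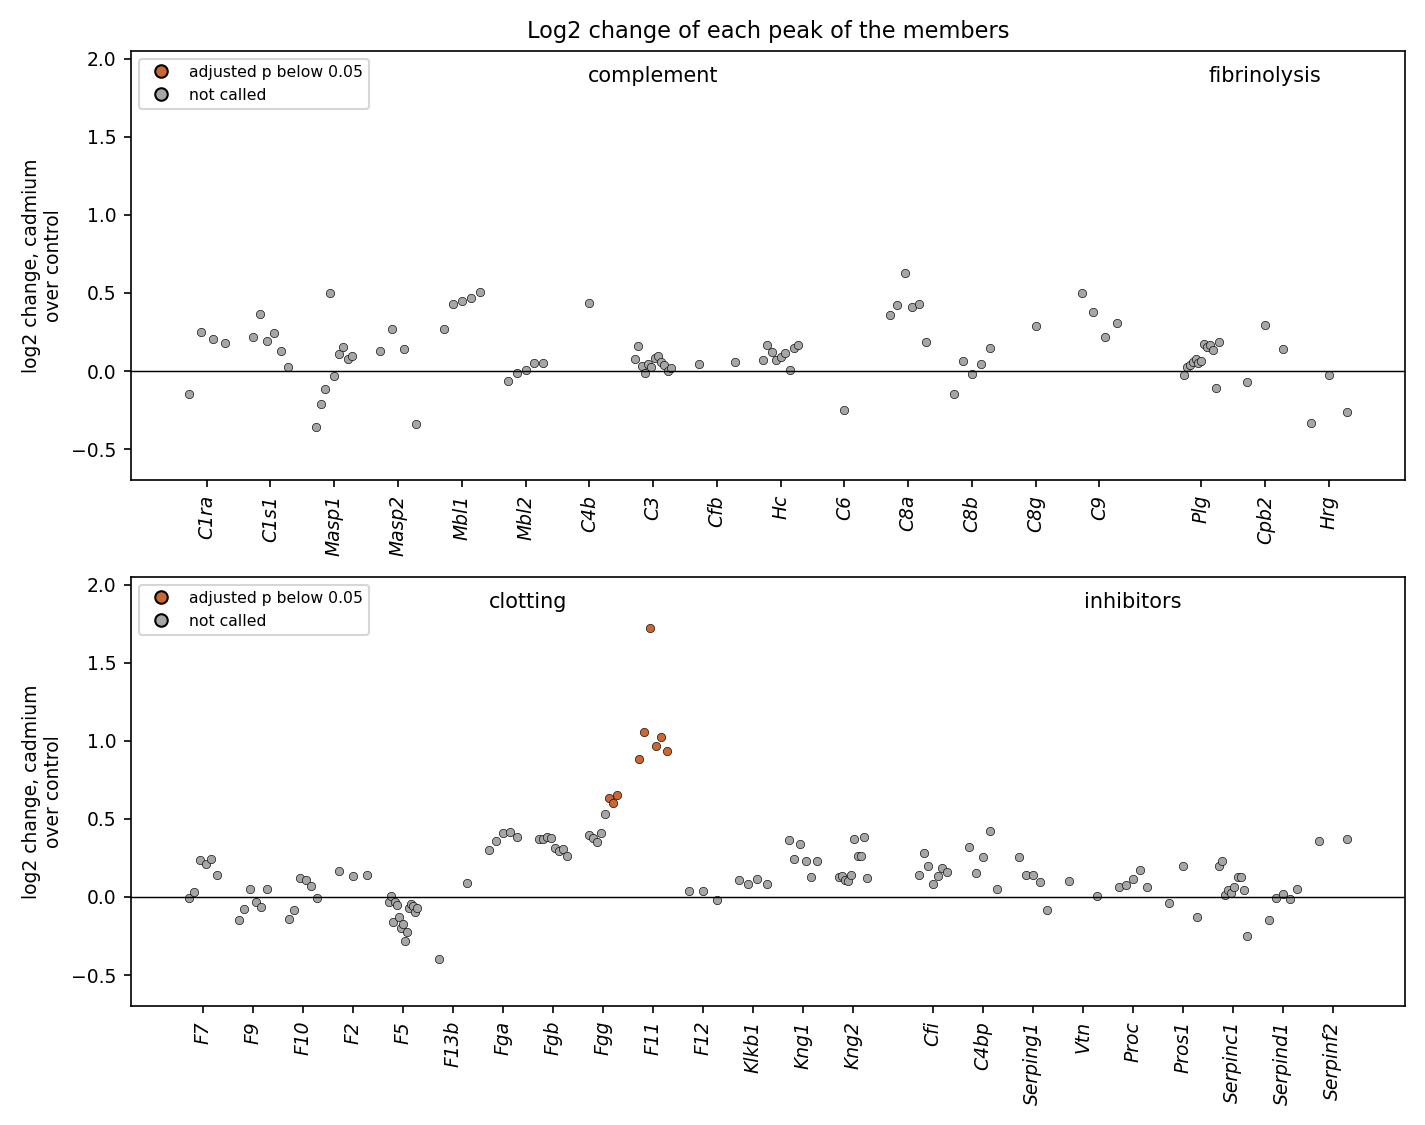
Log2 change of each member peak (vertical axis, cadmium over control) by gene and role, with peaks in the order of their coordinates within a gene. The 9 called peaks are those of F11 (0.88 to 1.72) and 3 of Fgg (0.60 to 0.65), while every other member peak lay between -0.40 and 0.53 except 1 C8a peak at 0.63.

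F11 encodes the zymogen of factor XI, a protease of the contact branch that activates factor IX. The gene lies on chromosome 8 at chr8:45240659-45262055 on the minus strand (RefSeq, GRCm38.p6), beside Klkb1 at chr8:45266688-45294835, which encodes the related protease precursor prekallikrein. The 300 bases around the start sites of these neighbours are shown because F11 was called and its neighbour was not; they run from 250 bases before to 50 bases after the start, read from RefSeq (GRCm38.p6), F11 at chr8:45261982-45262281 and Klkb1 at chr8:45294786-45295085, both on the minus strand. Capitals mark matches on either strand to TTNNGNAA (a C/EBP pattern), CTGGGA (the core of the IL-6 response element) or GTTAAT (an element of HNF1).
F11: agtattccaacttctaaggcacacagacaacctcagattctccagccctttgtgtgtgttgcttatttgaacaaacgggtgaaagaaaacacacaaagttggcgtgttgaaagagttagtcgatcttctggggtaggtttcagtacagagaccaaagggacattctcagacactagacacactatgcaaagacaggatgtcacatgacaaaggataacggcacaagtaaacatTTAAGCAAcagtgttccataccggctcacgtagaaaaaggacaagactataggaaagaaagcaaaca
Klkb1: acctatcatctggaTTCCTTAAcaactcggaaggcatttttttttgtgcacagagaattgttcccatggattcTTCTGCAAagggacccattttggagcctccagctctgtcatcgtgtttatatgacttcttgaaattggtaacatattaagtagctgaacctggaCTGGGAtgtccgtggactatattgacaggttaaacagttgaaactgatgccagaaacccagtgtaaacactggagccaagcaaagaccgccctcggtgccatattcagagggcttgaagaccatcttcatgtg

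The F11 window held 1 match to TTNNGNAA and no match to the other patterns. The match lay 17 bases before the start site used for the window, chr8:45262031, from which F11 peak distances were also taken. The gene span given above reaches past that site to 45262055, so the match lies within the span. Klkb1 held 2 matches to TTNNGNAA and 1 to CTGGGA. A match is a description of letters and not a binding site. TTNNGNAA was found in 40.7% of 27025 promoter windows and CTGGGA in 31.5%.

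Summed over its 6 peaks, F11 had 53.2, 38.3 and 59.4 CPM in control replicates 1, 2 and 3. In cadmium replicates 1, 2 and 3 it had 105, 90.2 and 104 CPM. Every cadmium sample was above every control sample. The fold was 1.98 (95% interval 1.53 to 2.56; log2 0.99, SE 0.16, adjusted p = 0.00865). F11 was the only one of 41 members called in this gene-level test, in which 10.2% of all genes were called, 5.98% higher and 4.18% lower. The labels number the replicates as batches, and within batches 1, 2 and 3 the log2 differences were 0.99, 1.24 and 0.80. It was called in 6 of 6 fits that left out 1 sample, at log2 changes of 0.83 to 1.12.

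The 6 F11 peaks lay in a group at each end of the gene. The most abundant, chr8:45241217-45241599, lies 20623 bases from the start site, near the end of the gene. It had 24.6, 22.2 and 32.0 CPM in the control samples and 43.2, 49.6 and 52.7 CPM in the cadmium samples (log2 0.88, SE 0.17, adjusted p = 0.0163; not called without cadmium replicate 3). The groups did not overlap in this or in any other F11 peak, while 14.4% of all peaks had every cadmium sample above every control sample. The largest change was at chr8:45244022-45244402, which had 4.18, 4.16 and 3.15 CPM in control and 16.2, 10.7 and 11.1 CPM in cadmium samples. Its fold was 3.30 (log2 1.72, SE 0.21, adjusted p = 0.00192). Cadmium replicate 1 was the highest there, and without it and in each of the other 5 fits that left out 1 sample the peak was called.

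The peak at chr8:45242126-45242366 had 4.59 ± 0.587 CPM in control and 9.55 ± 0.914 CPM in the cadmium group (SD, n = 3; log2 1.06, SE 0.17, adjusted p = 0.00669). At the other end of the gene, the peak 130 bases after the start site rose from 6.43 ± 1.87 to 12.3 ± 2.39 CPM (SD, n = 3; log2 0.93, adjusted p = 0.0437). The peaks 2814 and 3358 bases after the start changed by log2 1.02 and 0.97 (adjusted p = 0.047 and 0.0489). In these 3 peaks control replicate 2 was the lowest of all samples, at 4.26 to 4.54 CPM. In the 6 fits that left out 1 sample, the peak at 130 bases was called without control replicate 1 or cadmium replicate 2, that at 2814 bases without control replicate 2, and that at 3358 bases in none. A test of each peak against the other peaks of its gene gave the strongest F11 peak an excess of log2 0.71 that was not called (adjusted p = 1), so the peaks of F11 were not told apart in their change. That test called 0 of the 194 member peaks it covered and 0.0327% of the peaks of the whole table.

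**Figure D2:**
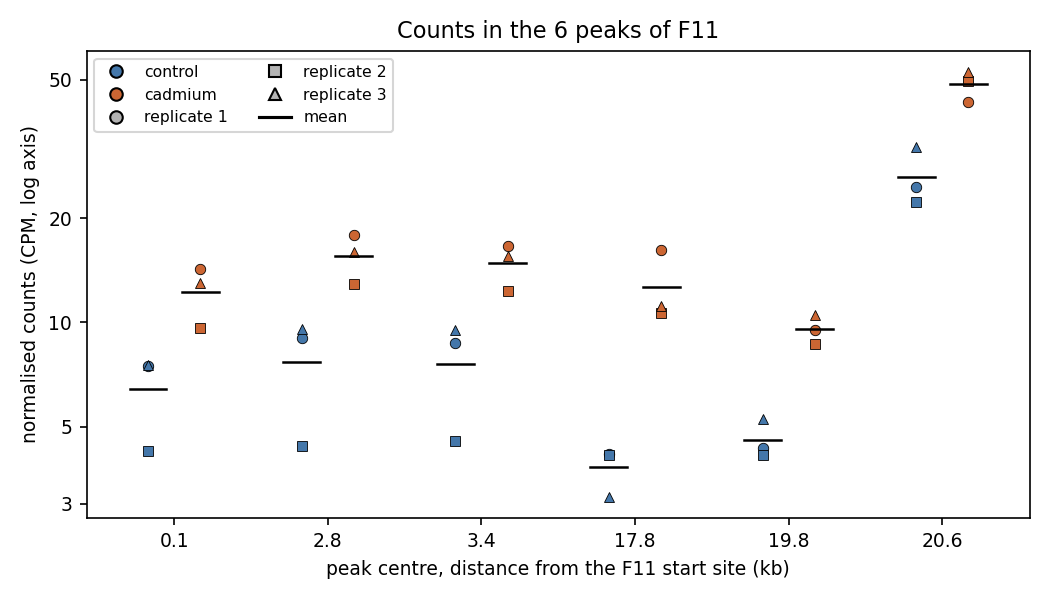
Normalised counts (CPM, log axis) in each F11 peak for the 3 control (blue) and 3 cadmium (orange) samples, ordered by distance of the peak's centre from the start site in kb (positions not to scale); bars are group means. Cadmium samples lie above control samples in all 6 peaks, by the most at 17.8 kb.

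The other contact genes did not pass the test. Klkb1 had 258, 211 and 207 CPM in control and 245, 240 and 223 CPM in cadmium samples, with overlapping groups and a log2 change of 0.07 (95% interval -0.22 to 0.35, adjusted p = 0.774). F12, the gene of factor XII, which starts the contact branch, had a log2 change of -0.002 (95% interval -0.36 to 0.35, adjusted p = 0.994). Kng1 and Kng2, which encode kininogens that carry prekallikrein and factor XI in plasma, had log2 changes of 0.20 and 0.15 (adjusted p = 0.405 and 0.581). The ratio of F11 to Klkb1 counts was 0.207, 0.181 and 0.286 in control and 0.430, 0.375 and 0.464 in cadmium samples, so the ratios did not overlap. An exact two-sided permutation test gave p = 0.1, the smallest possible with 3 against 3 samples, and 0.15 after adjustment over 6 ratios. The ratio of F11 to F12 was 0.286 ± 0.0422 in control and 0.567 ± 0.0465 in cadmium samples (SD, n = 3; exact p = 0.1).

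Fibrinogen is made of 3 chains, and their genes Fgg, Fga and Fgb lie side by side on chromosome 3. Per kilobase of peak they had the highest levels of all members, at 1890 CPM per kb for Fga, 1230 for Fgb and 1226 for Fgg as means of the 6 samples, followed by C3 at 1069. F11 was among the lowest, at 33.1 CPM per kb in control and 65.5 in cadmium samples. Such levels depend on pull-down and on the peak borders as well as on RNA. The windows around the fibrinogen start sites are shown because the changes of the 3 genes had the same sign in every peak; they are from RefSeq (GRCm38.p6), Fga at chr3:83025903-83026202 and Fgg at chr3:83007474-83007773 on the plus strand and Fgb at chr3:83049814-83050113 on the minus strand, with capitals as for F11.
Fga: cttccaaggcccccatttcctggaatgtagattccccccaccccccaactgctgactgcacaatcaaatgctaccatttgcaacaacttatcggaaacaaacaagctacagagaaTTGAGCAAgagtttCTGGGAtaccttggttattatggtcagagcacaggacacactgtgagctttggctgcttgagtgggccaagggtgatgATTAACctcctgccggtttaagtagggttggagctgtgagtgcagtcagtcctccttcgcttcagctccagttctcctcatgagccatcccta
Fgb: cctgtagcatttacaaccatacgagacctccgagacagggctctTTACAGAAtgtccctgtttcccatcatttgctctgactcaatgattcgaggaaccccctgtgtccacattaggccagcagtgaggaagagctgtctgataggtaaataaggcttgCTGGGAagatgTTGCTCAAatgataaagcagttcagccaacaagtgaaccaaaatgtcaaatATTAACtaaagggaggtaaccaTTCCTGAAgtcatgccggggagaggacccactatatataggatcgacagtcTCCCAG
Fgg: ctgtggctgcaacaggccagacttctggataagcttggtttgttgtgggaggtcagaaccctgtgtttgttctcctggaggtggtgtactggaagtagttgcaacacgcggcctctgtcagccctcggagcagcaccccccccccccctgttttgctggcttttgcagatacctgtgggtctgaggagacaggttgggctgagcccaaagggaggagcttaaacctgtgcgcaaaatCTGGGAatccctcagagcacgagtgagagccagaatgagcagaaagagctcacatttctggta

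All of these windows held CTGGGA, the core of the element through which interleukin-6 acts on fibrinogen genes. It began 121 bases before the start in Fga, 91 before in Fgb and 13 before in Fgg, and Fgb had a further match 44 bases after the start. Matches to GTTAAT were found in Fga and Fgb, 43 and 29 bases before the start. Among the 33 members with a window in the RefSeq table, 19 (57.6%) held CTGGGA, 21 (63.6%) TTNNGNAA and 10 (30.3%) GTTAAT, against 31.5%, 40.7% and 7.20% of all windows.

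Fgg had 564, 392 and 460 CPM in control and 692, 689 and 816 CPM in cadmium samples at chr3:83012710-83013104, 5183 bases from its start. This was a fold of 1.55 (log2 0.63, SE 0.16, adjusted p = 0.043). At the last peak of the gene, chr3:83014785-83015022, the values were 162, 132 and 125 CPM in control and 224, 196 and 239 CPM in cadmium samples (log2 0.65, SE 0.15, adjusted p = 0.0315). Groups did not overlap in either peak. The third called peak, chr3:83014077-83014406, changed by 0.60 (SE 0.15, adjusted p = 0.0463), from 366 ± 60.5 to 555 ± 47.4 CPM (SD, n = 3).

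The other 5 Fgg peaks, all nearer to the start, had log2 changes of 0.35 to 0.53 and were not called. The nearest, chr3:83011297-83011569, had an adjusted p of 0.0793 and was called with the replicate block (0.0349), by DESeq2 (0.0436) and after scaling to total counts (0.0478). No Fgg peak departed from the rest of its gene (adjusted p = 1), so the called and uncalled peaks were not shown to differ. The Fgg calls depended on which samples were included. 4 peaks were called without control replicate 1, 1 without cadmium replicate 2, and 0 without control replicate 2, control replicate 3, cadmium replicate 1 or cadmium replicate 3.

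Over whole genes, Fgg had 2898, 2099 and 2364 CPM in control and 3522, 2991 and 3700 CPM in cadmium samples, with no overlap. The fold was 1.39 (log2 0.47, 95% interval 0.13 to 0.81, adjusted p = 0.0805), and log2 differences within batches were 0.28, 0.51 and 0.65. Fga, the alpha chain gene, had 4193, 4141 and 3942 CPM in control and 5428, 4720 and 5624 CPM in cadmium samples (log2 0.36, 95% interval 0.09 to 0.63, adjusted p = 0.0874). Fgb, the beta chain gene, had 2881, 2013 and 2311 CPM against 3078, 2709 and 3255 CPM, where control replicate 1 was above cadmium replicate 2 (log2 0.33, 95% interval -0.02 to 0.67, adjusted p = 0.209). None of the 3 genes was thus called as a whole. Fgg was called with the replicate as a block (adjusted p = 0.0472) and without control replicate 1 (adjusted p = 0.0454). DESeq2 called Fgg and Fga (adjusted p = 0.035 and 0.0477), and so did scaling to total counts (adjusted p = 0.0203 and 0.0473).

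All 21 peaks of the fibrinogen genes were above 0, with log2 changes of 0.26 to 0.65, and this held in each of the 14 settings used. Neighbouring peaks of a gene share its RNA and are not independent. In 12 of these peaks every cadmium sample was above every control sample, as in 14.4% of all peaks. Summed over the 3 genes, control samples had 10940, 9423 and 9732 CPM and cadmium samples 13420, 12000 and 14440 CPM. The clotting genes without fibrinogen had 5677, 4836 and 4968 CPM in control and 5551, 5245 and 5874 CPM in cadmium samples, with overlap. The ratio of Fgg to Fgb was 1.01, 1.04 and 1.02 in control and 1.14, 1.1 and 1.14 in cadmium samples (exact two-sided permutation p = 0.1, the smallest possible). The ratio of Fgg to Fga was 0.691, 0.507 and 0.6 in control and 0.649, 0.634 and 0.658 in cadmium samples, with overlap (exact two-sided permutation p = 0.5). The mean ratio of Fga to Fgb was 1.74 in both groups (exact p = 0.7).

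**Figure D3:**
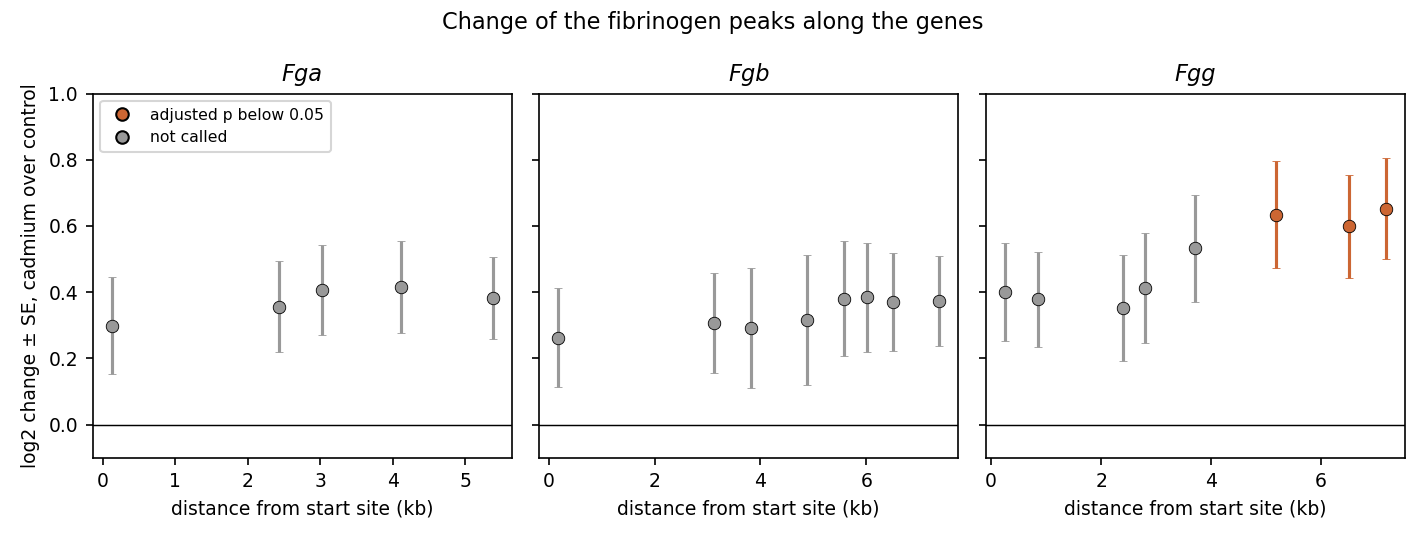
Log2 change (cadmium over control, point) with its SE (bar) for each peak of Fga, Fgb and Fgg against the distance of the peak's centre from the start site in kb. All 21 peaks lie above 0, and the 3 called peaks are the 3 of Fgg farthest from its start.

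The proteases of the cascade and factor V had small log2 changes of both signs, and none was called. F2, which encodes prothrombin, had a log2 change of 0.12 (95% interval -0.19 to 0.43), F7 of 0.12, F10 of 0.04 and F9 of -0.05, with adjusted p-values of 0.616 to 0.864. F5, the gene of the cofactor that factor X needs to make thrombin, had 14 of 15 peaks below 0 and a gene-level change of -0.14 (95% interval -0.42 to 0.13, adjusted p = 0.501). F13b, the carrier subunit of the factor that cross-links fibrin, had a log2 change of -0.08 (adjusted p = 0.789). Of 36 peaks in F2, F5, F7, F9 and F10, 14 were above 0, with a median of -0.03, against 22 of 23 peaks and a median of 0.38 for the fibrin genes (fibrinogen and F13b). The first count is weighted by the many F5 peaks. By gene, 3 of these 5 were above 0 with a median of 0.04, against 3 of 4 and 0.34 for the fibrin genes.

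In complement, the genes nearest to a call belonged to the lectin and classical pathways. Mbl1, which encodes mannose-binding lectin A, had 360, 318 and 300 CPM in control and 406, 504 and 429 CPM in cadmium samples, without overlap. Its fold of 1.37 (95% interval 1.11 to 1.68) had an adjusted p of 0.0606, and all 5 of its peaks had every cadmium sample above every control sample, as 14.4% of all peaks did. At its most abundant peak, chr14:41158450-41159592, the values were 210, 201 and 180 CPM in control and 254, 319 and 267 CPM in cadmium samples (log2 0.51, SE 0.14, adjusted p = 0.0654; 0.0477 with the replicate block and 0.0327 by DESeq2).

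Mbl2, the gene of mannose-binding lectin C, had a log2 change of -0.002 (95% interval -0.28 to 0.27, adjusted p = 0.995), with 467, 373 and 423 CPM in control and 433, 418 and 411 CPM in cadmium samples. The ratio of Mbl1 to Mbl2 was 0.778 ± 0.0728 in control and 1.06 ± 0.135 in cadmium samples (SD, n = 3; exact two-sided permutation p = 0.1, the smallest possible). The values did not overlap.

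Masp1 encodes a protease bound to these lectins and had 9 peaks with log2 changes of -0.36 to 0.50. Its widest peak, chr16:23468383-23470640, had 91.7, 110 and 101 CPM in control and 136, 155 and 137 CPM in cadmium samples. The groups were apart there (log2 0.50, SE 0.14, adjusted p = 0.0619; 0.0372 with the replicate block and 0.0263 by DESeq2), while the gene as a whole had a log2 change of 0.14 (adjusted p = 0.461, and 0.0411 where only this most abundant peak stood for the gene). At chr16:23449433-23449625, outside the RefSeq gene, the log2 change relative to the other Masp1 peaks was -0.52 and was not called (adjusted p = 1). Masp2, the gene of the protease that cleaves C4 and C2, had a log2 change of 0.11 (adjusted p = 0.532), and 1 of its peaks was called lower without cadmium replicate 1 (log2 -0.77, adjusted p = 0.0469).

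C4b, a gene of complement C4, had 1 peak and gene-level values of 106, 95.5 and 84.3 CPM in control and 119, 132 and 129 CPM in cadmium samples (log2 0.41, 95% interval 0.14 to 0.68, adjusted p = 0.062). Its groups did not overlap, but reads may be shared with its close copy C4a. C1s1, a protease of C1, had 561, 389 and 478 CPM in control and 560, 569 and 556 CPM in cadmium samples (adjusted p = 0.334), and its partner C1ra had a log2 change of 0.15 (adjusted p = 0.526).

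C3, the component on which the pathways converge and the most abundant complement gene, had 4816, 3173 and 3991 CPM in control and 3984, 3944 and 4321 CPM in cadmium samples. The control samples spread on both sides of the cadmium samples, and the log2 change was 0.03 (95% interval -0.32 to 0.39, adjusted p = 0.923). Within batches it was -0.27, 0.31 and 0.11. Cfb, the protease of the alternative pathway, had a log2 change of 0.03 (adjusted p = 0.906).

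Among the complement genes, those of the terminal pore had the widest intervals. C8a had a log2 change of 0.39 (95% interval -0.18 to 0.97), C9 of 0.28 (-0.26 to 0.82), C8g of 0.26 (-0.15 to 0.68), Hc, which encodes C5, of 0.08, and C8b of 0.01, all uncalled with adjusted p-values of 0.366 to 0.98. C8a was highest in cadmium replicate 2, at 214 CPM against 136 in each of the other cadmium samples, and lowest in control replicate 3, at 81.6 CPM. Without control replicate 1, 1 C9 peak was called higher (log2 0.95, adjusted p = 0.0148). C6 had 1 peak near 1 CPM and a log2 change of -0.27 (-1.03 to 0.49).

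**Figure D4:**
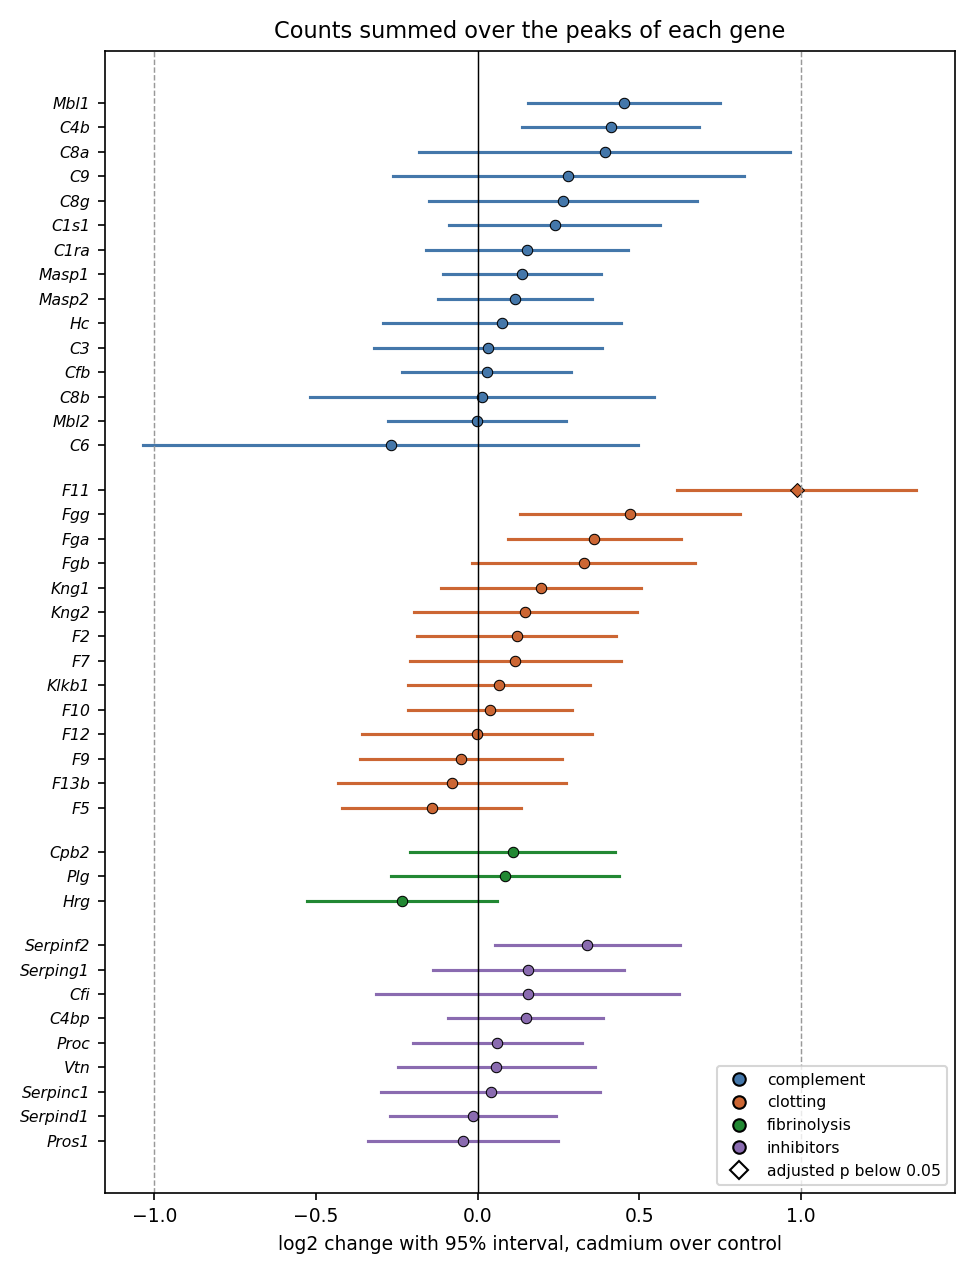
Gene-level log2 change (point) with its 95% interval (line), cadmium over control, for the 41 members by role; dashed lines mark a 2-fold change. F11 alone was called (diamond), and of the other 40 intervals the C6 one alone reaches past a 2-fold line.

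Fibrinolysis members did not pass the test. Plg, which encodes plasminogen, the precursor of plasmin, had 2191, 1475 and 1801 CPM in control and 2086, 1782 and 1930 CPM in cadmium samples (log2 0.09, 95% interval -0.27 to 0.44, adjusted p = 0.769). Cpb2, whose product slows fibrin breakdown, had a log2 change of 0.11 (adjusted p = 0.673). Hrg, a plasma protein that binds plasminogen and heparin, was the only member gene with several peaks that were all below 0 and the only one with every cadmium sample below every control sample. It had 671, 849 and 696 CPM in control and 587, 634 and 664 CPM in cadmium samples (log2 -0.23, 95% interval -0.53 to 0.06, adjusted p = 0.29). Of all genes, 14.5% were lower in this way.

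Among the inhibitors, Serpinf2, the gene of alpha-2-antiplasmin, which blocks plasmin, had 630, 562 and 675 CPM in control and 706, 845 and 811 CPM in cadmium samples. The groups did not overlap, and the fold of 1.27 (95% interval 1.04 to 1.54) was not called (adjusted p = 0.126). Serping1, which encodes the C1 inhibitor that also blocks kallikrein and factor XII, had a log2 change of 0.16 (adjusted p = 0.489). Vtn, the gene of vitronectin, which holds back the terminal complex, had 856, 632 and 737 CPM in control and 740, 791 and 784 CPM in cadmium samples (log2 0.06, adjusted p = 0.827). C4bp and Cfi, which inactivate C4b and C3b, had log2 changes of 0.15 each. Serpinc1 (antithrombin), Serpind1 (heparin cofactor II), Proc (protein C) and Pros1 (its cofactor protein S) had log2 changes of -0.05 to 0.06, with adjusted p-values of 0.778 to 0.957.

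**Figure D5:**
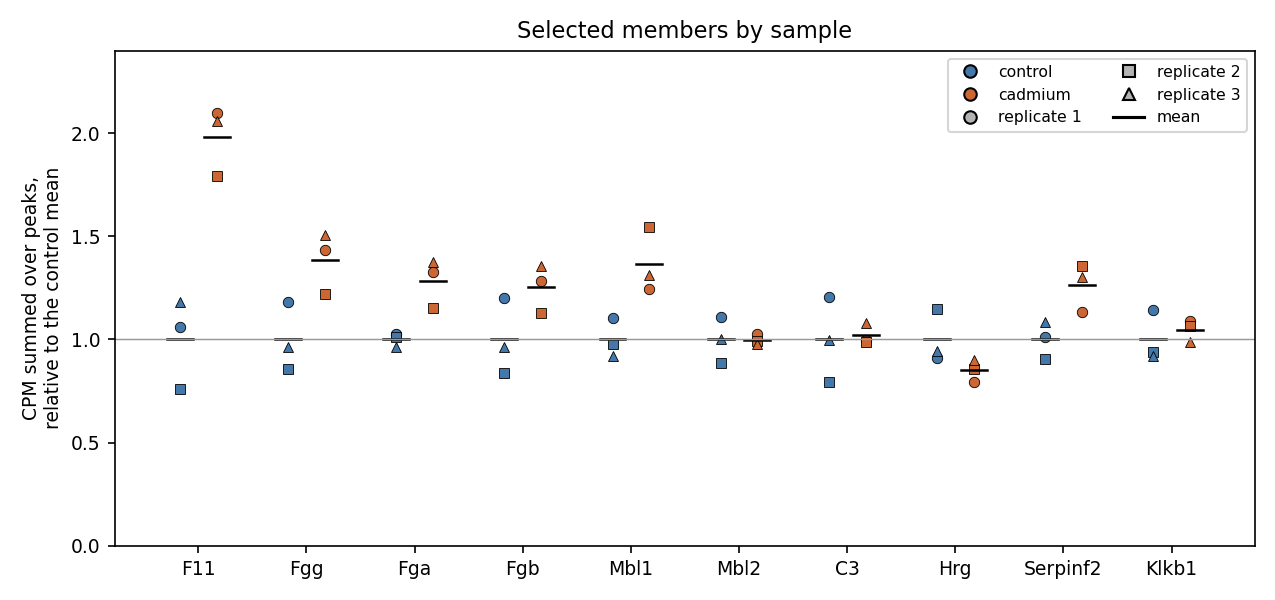
CPM summed over the peaks of 10 members in each sample, divided by the control mean of the gene, for control (blue) and cadmium (orange) samples; bars are group means. The cadmium samples are all above the control samples for F11, Fgg, Fga, Mbl1 and Serpinf2 and all below them for Hrg, and the groups overlap for Fgb, Mbl2, C3 and Klkb1.

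Most member peaks had small changes of one sign, and their share depended on which control samples were included. Of the 225 member peaks 176 (78.2%) were above 0, with a median log2 change of 0.12, against 49.5% of all peaks and a median of -0.003. The counts above 0 were 62 of 74 in complement, 64 of 88 in clotting, 13 of 19 in fibrinolysis and 37 of 44 in the inhibitors, with medians of 0.11, 0.13, 0.06 and 0.11. Control replicate 2 had the lowest summed level in every role, for example 6687 CPM in complement against 9032 and 7620 in the other control samples and 8083 to 8732 in the cadmium samples. Without control replicate 2, 122 of 225 member peaks (54.2%) were above 0 and the median was 0.03. Without control replicate 1, 196 (87.1%) were above 0 and the median was 0.25. The remaining fits that left out 1 sample had 73.3% to 79.6% above 0. The groups did not overlap for 35 member peaks (15.6%) that were higher and for 1 (0.444%) that was lower, against 14.4% and 12.5% of all peaks.

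By gene, 8 of 41 members were higher without overlap, against 16.9% of all genes, and Hrg was lower. The summed clotting level was the only one of the 4 role sums that did not overlap, with 16620, 14260 and 14700 CPM in control and 18970, 17240 and 20320 CPM in cadmium samples. For 39 of the 40 uncalled genes the 95% interval excluded a 2-fold change in either direction, and for 29 it excluded a 1.5-fold change.

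Of the 33 members whose strand was known, 21 had their most abundant peak in the last 10% of the gene and 12 did not. The median position was 93% of the way from start to end, and it was not compared with other genes. Member peaks had a median width of 241 bp, against 229 bp for all peaks. In 12 genes 26 peaks carried a second symbol, among them all 5 of Serpind1 (with Pi4ka), 3 of 4 of Klkb1 (with Gm45753) and the first 2 of Fgg (with Gm30097), so their reads cannot be assigned to 1 gene. No called member peak was among them.

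Peaks of other genes of these pathways were also called. Of 26 further complement genes 21 had peaks. Over all peaks 3.55% were called higher and 2.72% lower. Of the 85 peaks of these genes, 9, in 6 genes, were called higher and 0 lower. These include C1qa, C1qb and C1qc, which encode the recognition subunit of C1 and are made mainly by macrophages. The C1qb peak chr4:136880229-136880810 had 27.6, 37.4 and 22.7 CPM in control and 53.6, 72.7 and 72.1 CPM in cadmium samples (log2 1.18, SE 0.21, adjusted p = 0.00986). The groups were apart, and the peak was called in 5 of 6 fits that left out 1 sample, the exception being the fit without cadmium replicate 3 (adjusted p = 0.0545). One C1qc peak (log2 1.16, adjusted p = 0.00481) was called in 6 of 6 such fits, and the leading C1qa peak (log2 0.92, adjusted p = 0.0224) in 3 of 6.

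C4a (0.80, adjusted p = 0.0197), the complement receptor gene C5ar1 (1.11, adjusted p = 0.0449) and the collectin gene Colec11 (0.70, adjusted p = 0.0486) were the other genes called. C4a was called in 3 of 6 such fits, not without control replicate 3, cadmium replicate 2 or cadmium replicate 3. C5ar1 and Colec11 were each called in 1 of 6, C5ar1 without control replicate 2 and Colec11 without cadmium replicate 1. The summed level of 6 macrophage and Kupffer cell markers, of which Adgre1 had no peak, was 147 to 214 CPM in control and 228 to 299 CPM in cadmium samples, with 3 of 13 peaks (2 of Cd5l and 1 of Csf1r) called higher. Not all markers had the same sign: Vsig4 and Marco had log2 changes of -0.81 and -0.35, another Csf1r peak had -0.21, and the median over the most abundant peak of each gene was 0.14. Stellate cell markers summed to 129 to 169 CPM in control and 196 to 236 CPM in cadmium samples. Of their 13 peaks 2 were called higher, both of Lrat and shared with the symbol Rbm46os. Endothelial marker sums overlapped, and 1 of 16 peaks (Lyve1, log2 1.17, adjusted p = 0.039) was called higher. Bile duct markers had 0 of 11 peaks called, a median log2 change of 1.16 over peaks, and overlapping sums. Over all peaks 3.55% were called higher. The part of these markers in the C1q values or in the members' values was not tested. Of 33 further coagulation and fibrinolysis genes 24 had peaks, and 1 of 103 peaks was called, against 6.27% of all peaks. In the 103, peaks shared by Serpina1b and Serpina1d were counted for each gene. The called peak was that of Anxa2 (log2 1.03, adjusted p = 0.0214), a surface protein that binds plasminogen. It was not called without control replicate 1, control replicate 3 or cadmium replicate 3.

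Regulators of liver plasma protein genes were called lower where they were called. Of 67 peaks in 12 such genes 0 were called higher and 9 lower, against 3.55% and 2.72% of all peaks. The 9 peaks were in 3 genes, Onecut1, Cebpb and Il6ra. Over all 67 peaks the median log2 change was -0.004. Cebpb, a C/EBP factor of the acute phase, had 505, 626 and 814 CPM in control and 227, 360 and 329 CPM in cadmium samples at chr2:167688989-167690366, a peak that also carries the symbol Tmem189. All cadmium samples were lower (log2 -1.09, SE 0.21, adjusted p = 0.0161), and the peak was not called without control replicate 3 or without cadmium replicate 3. Il6ra, the gene of the interleukin-6 receptor, was lower at 2 peaks (log2 -0.63 and -0.56, adjusted p = 0.0467 and 0.0407), and neither was called in any fit that left out 1 sample. Onecut1, a hepatocyte transcription factor, was lower at 6 peaks by 1.41 to 1.97 on the log2 scale, all shared with the symbol Gm20649, and at chr9:74889230-74890323 it went from 67.1 ± 15.5 to 19.0 ± 3.53 CPM (SD, n = 3; adjusted p = 0.0015) and was called in 6 of 6 such fits.

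In the authors' deposited table, 3 member peaks were marked Up, all in F11, and 0 Down, against 2.66% and 1.58% of all peaks. The 1573 marked peaks there were those with an absolute log2 change of at least 1 and an unadjusted p below 0.05. The calls made here rest on adjusted p alone, with no limit on the change. The most abundant F11 peak was thus unmarked there at log2 0.88, with a deposited adjusted p of 0.000162. That table gave 12 member peaks an adjusted p below 0.05, which were 6 of F11, 4 of Fgg, 1 of Masp1 and 1 of Mbl1. Its adjusted p-values for the Masp1 and Mbl1 peaks (0.0263 and 0.0327) equal those of the DESeq2 fit above. The deposited values are thus not separate evidence from that fit.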

How the data were processed

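MeRIP-seq counts of livers of 3 control and 3 cadmium samples were analysed. Per the submitters' processing notes, the build was mm10 and the tools included STAR 2.7.1a, cutadapt 1.1.8 and MACS2 2.1.1. The deposited table holds raw counts per peak, to judge by their whole values and unequal totals. The authors' deposited log2 changes and p-values were used for comparison only. The columns were read as pulled-down RNA because the rows are m6A peaks, which is an assumption; 0 sample columns were left unused. The sources used here do not say whether peaks were called per sample or whether counting used strand.

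Peaks were assigned to members by any of their symbols. edgeR 4.0.16 in R 4.3.3 used TMM scaling, filterByExpr (minimum count 10, minimum total 15; 37088 of 37118 peaks kept) and its quasi-likelihood F test between the groups. SE was taken from the log2 change and the F statistic, so it is not independent of p. The biological coefficient of variation was 19.4%, and replicates differed beyond sampling noise (chi-square per degree of freedom 31.9 to 161). Gene-level counts were summed over a gene's peaks and scaled in their own table, so they are not sums of peak CPM; role sums are sums of peak CPM. The within-gene test was edgeR's diffSpliceDGE. Scripts were tested on simulated data. The labels name replicates as batches. Deviations from group means correlated at 0.14, 0.21 and 0.17 within batches and at -0.17 to 0.02 across them. Over the member peaks they were 0.11, 0.23 and 0.42 within batches and -0.29 to 0.02 across them. These few correlations do not establish that equal numbers pair samples. No methods text gave a block, so the main tests used none, and the replicate was a block in an alternative fit only.

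Genes named by rule were, per role, those with a called peak, and those whose most abundant peak had the 2 highest mean CPM values or the 2 largest absolute log2 changes; others were named after their values were seen. The members and lists were chosen with earlier results of these data known. Alternatives were RLE and total-count scaling, omission of the 2 most abundant peaks, other filters, DESeq2 1.42.0, the replicate block and omission of each sample. Peak sequences and exon or UTR positions were not analysed here.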

Additional observations from a re-analysis of the deposited data

How the results depend on the processing

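Under scaling to total counts, 547 peaks were called lower in place of 1008, 868 genes were called in place of 1326, and 3 members in place of 1 were called at gene level. DESeq2 called 3683 peaks in place of 2325 (2035 higher and 1648 lower), 2 complement peaks and 5 members at gene level. With the replicate block, 2 complement peaks and 2 members at gene level were called, as were 19 peaks in place of 9 in the within-gene test, which was not run with DESeq2. Taking only the most abundant peak of a gene gave 2 members. Leaving out 1 sample gave 543 (without cadmium replicate 3) to 1976 peaks over all, 282 to 986 higher and 261 to 1001 lower, 350 to 1022 genes, 1 to 2 members at gene level, and 4 to 14 peaks in the within-gene test. Of the member peaks it called 2 to 9, with 2 to 8 in clotting, 0 to 1 in complement, 2 to 4 in F11 and 0 to 4 in Fgg. The complement calls were a C9 peak that was higher without control replicate 1 (0.95, adjusted p = 0.0148) and a Masp2 peak that was lower without cadmium replicate 1 (-0.77, adjusted p = 0.0469). Under the other settings 7 to 12 member peaks were called. Signs turned, in values never called, when 1 sample was left out: the leading C3 peak ranged from -0.053 to 0.23, that of Vtn from -0.011 to 0.20, and the gene-level values of C3 from -0.11 to 0.19, of Plg from -0.044 to 0.24 and of Vtn from -0.043 to 0.17, with each lowest value in the fit without control replicate 2. The cause of these changes was not tested, apart from fewer samples in those fits. F11 kept its sign and its gene-level call in every setting tried. The block changed the calls of 1 further Fgg peak, of the leading Mbl1 and Masp1 peaks and of the Fgg gene, as given beside the results, and of no other named peak or gene. With 3 samples a group, the smallest member change called was 1.51-fold.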
